A study of Mus musculus with 5 samples.

Results

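The comparison set C2C12 cells 1 day after the change to differentiation medium against C2C12 cells harvested at confluence, the state from which differentiation was started. C2C12 is an established mouse cell line of satellite cell origin. It grows as single-nucleus myoblasts in rich serum and, once crowded and deprived of growth factors, leaves the cell cycle and fuses into multinucleate myotubes. The day 1 cells had been kept for 1 day in 2% horse serum, and the confluent cells were taken at 100% confluence. Each stage had 4 biological replicates on 4 arrays of 2 colours, 2 replicates in each dye. The other channel of every array held a pool of 4 proliferating replicates grown to between 70 and 80% confluence. The labels name no engineered allele. The comparison used 8 of the 20 arrays of the series and all 343 probes that carried a mouse microRNA (miRNA) name, each spotted 2 times among 1488 distinct probes. A total of 187 of these probes gave signal above the empty and control spots on at least 3 of the 4 arrays of some stage and were tested, and 156 did not.

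MiRNAs are short RNAs that pair with messenger RNAs mostly through bases 2 to 8, the seed, and lower their translation and stability. A handful are largely restricted to striated muscle. MyoD and myogenin, the transcription factors that start the muscle programme when serum is withdrawn, act on the genes of miR-206, miR-133 and miR-1. Others, such as the cluster that begins with miR-17, are transcribed under growth-promoting factors including Myc and E2F and are typical of dividing cells. Each value below is a log2 ratio of a stage to the proliferating pool or the difference of 2 such ratios, day 1 minus confluent. RNA was extracted from whole cultures, so a change in the share of differentiating cells and a change in the level per cell cannot be told apart.

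The mature sequences of some of the miRNAs named below are given here from RefSeq (GRCm38.p6), with the seed in capitals. The first pair are the muscle-specific miRNAs with the largest differences.
miR-206-3p: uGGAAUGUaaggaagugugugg
miR-133b-3p: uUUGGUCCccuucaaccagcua
Next are the miR-26 and miR-30 members and miR-22, whose differences were smaller and positive at the turning taken as the main one below. Under it miR-26a and miR-30c passed the test and miR-26b, miR-30a-5p and miR-22 did not.
miR-26a: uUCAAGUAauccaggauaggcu
miR-26b: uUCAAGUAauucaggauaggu
miR-30c: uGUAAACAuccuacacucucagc
miR-30a-5p: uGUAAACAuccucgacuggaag
miR-22: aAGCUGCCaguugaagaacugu
The last sets are pairs whose differences were below 0 under every turning of the confluent arrays, from the clusters of miR-221 and of miR-17.
miR-221: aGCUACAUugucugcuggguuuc
miR-222: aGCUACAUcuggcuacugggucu
miR-17-5p: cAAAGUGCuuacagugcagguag
miR-20a: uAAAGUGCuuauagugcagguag
Members of each of the last 2 pairs shared their seed, as did miR-26a with miR-26b and miR-30c with miR-30a-5p. Spotted probes for such relatives can bind each other's RNA, so their values are not independent of each other. Of the 23 names looked up, 17 matched an entry from which a sequence could be printed. Sequences of miR-422b, miR-143 and miR-23b, which also passed the test at the main turning, are not among those given.

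Which channel held the sample was not recorded for any array, so each array's ratio had first to be turned. The 12 arrays of days 1, 2 and 4 fell into opposed pairs within each stage. Between day 1 arrays turned alike, correlations across 110 probes were 0.663 to 0.818, and between those turned oppositely they were -0.851 to -0.720. Over the 108 probes left without the muscle-specific miRNAs these were 0.334 to 0.616 and -0.704 to -0.398, and 12 of 12 arrays were turned the same way. The 4 confluent arrays can be turned in 6 ways if 2 of them carry the sample in red, and a result is said to hold under every turning when it was obtained in all 6.

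A direction for the confluent arrays could nevertheless be read from the authors' deposited table, which gives 1 log2 value per probe and stage. Its confluent column correlated with the mean of the 4 arrays at 0.783 when arrays 1 and 2 were taken as red (across 187 probes, which are not independent). The other 4 pairings that are not its mirror gave -0.0458 to 0.0458. In a regression on the 4 arrays the coefficients were 0.175, 0.244, -0.195 and -0.233, 2 of each sign, with an R-squared of 0.619. The same procedure applied to day 1 gave red arrays 1 and 4 (r = 0.926). Its signs for days 1, 2 and 4 were the same on 12 of 12 arrays as those of the opposed pairs. The overall direction of those pairs had been taken from the day 4 column of the same table. Only their signs relative to each other could therefore differ. With confluent arrays 1 and 2 taken as red, correlations between confluent arrays turned alike were 0.198 to 0.485. Between those turned oppositely they were -0.528 to -0.286. The deposited table does not state which way its ratios run, so all directions here are likely rather than given. They rest on its values being sample over pool, since its columns set the directions of both stages. On 12 of 12 arrays of days 1, 2 and 4 the channel taken as the sample was the farther from the proliferating arrays. That check did not cover the confluent arrays. The proliferating column was not explained by its own arrays (R-squared 0.0122). Values are given for the turning of the authors' table, which was added after the data were seen, and the range over all 6 turnings is given for the called probes and for the medians of the families.

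**Figure D1:**
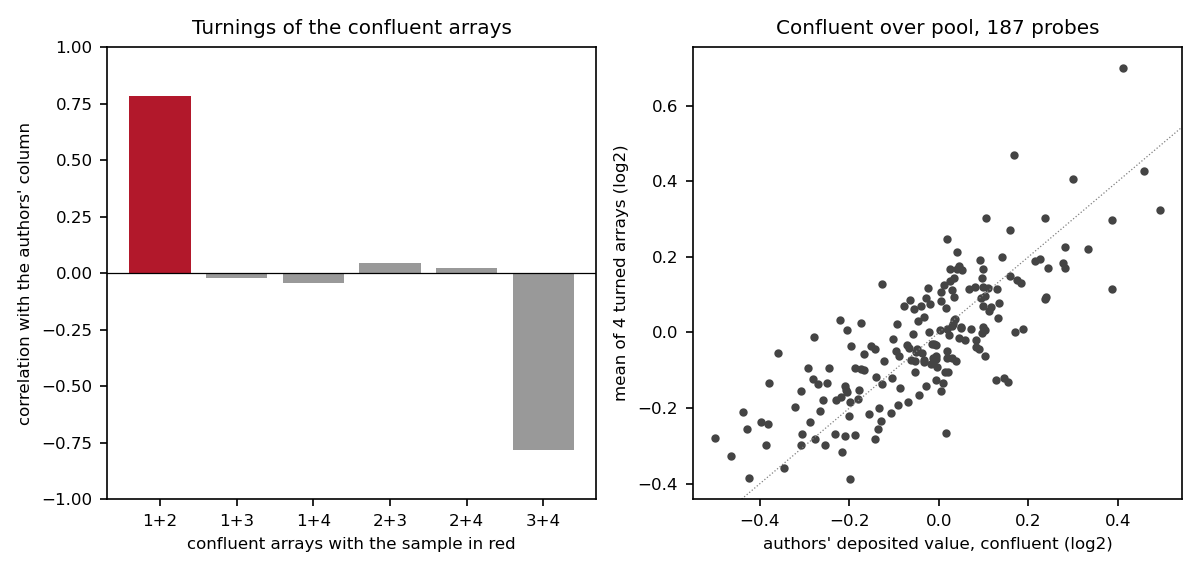
Left, Pearson correlation of the confluent column of the authors' deposited table with the mean of the 4 confluent arrays under each of the 6 turnings (bars, 187 mouse-named probes); right, that mean for arrays 1 and 2 in red (vertical axis, log2) against the deposited value (horizontal axis, log2), a point per probe, with the line of equal values. Arrays 1 and 2 in red stand at 0.783, their mirror at -0.783, and the other pairings lie near 0.

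The median size of the log2 ratio to the pool was 0.142 at day 1 and 0.116 in confluent cells. The SD over probes, to which extreme probes contribute most, of the log2 ratio to the pool was 0.385 at day 1 and 0.170 in confluent cells, where it was 0.0981 to 0.170 over the 6 turnings. At day 1, 3 of 187 probes were higher than in confluent cells under every turning (1.6% of probes tested), namely miR-206, the shared probe of miR-133a and miR-133b, and miR-422b. None was lower under every turning (0%). The call was a Benjamini-Hochberg adjusted p under 0.05 in limma, a linear model with a moderated spread, fitted over 20 arrays. Under the turning of the authors' table, 7 probes were higher (3.74%), with miR-23b, miR-30c, miR-26a and miR-143 added, and 0 were lower (0%). At that turning 28 probes had an unadjusted p under 0.05. The remaining turnings gave between 3 and 12 higher and between 0 and 7 lower.

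**Figure D2:**
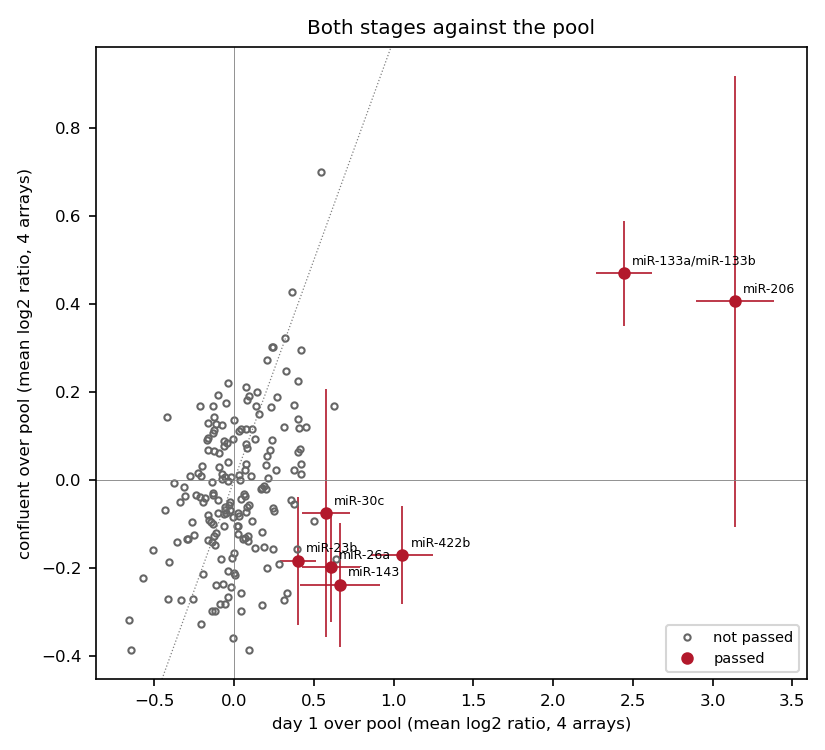
Mean log2 ratio to the proliferating pool at day 1 (horizontal axis) against confluent cells (vertical axis), a point per tested probe, 4 arrays per stage, at the turning of the authors' table; filled red points passed limma's test between the stages and carry SD bars, and the dotted line marks equal values. miR-206 and the miR-133a/miR-133b probe lie far to the right at 3.14 and 2.44, and the 5 other called probes are above the pool at day 1 and below it at confluence.

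The muscle-specific miRNAs split sharply. miR-206, which is confined to skeletal muscle and promotes differentiation of myoblasts, had log2 ratios to the pool of 2.81, 3.40, 3.22 and 3.13 on the 4 day 1 arrays, against 0.80, 0.90, 0.03 and -0.10 on the 4 confluent arrays. Every day 1 array was far above every confluent array, and among the confluent arrays the red pair was above the green pair. The difference was 2.73 (SE 0.29, 95% interval 2.13 to 3.34, limma adjusted p = 6.88e-07), a 6.65-fold higher level. It was 2.73 to 3.55 over the 6 turnings, so the turning of the authors' table gave the smallest value. The authors' deposited table itself listed miR-206 at 2.87 for day 1 and 0.30 for confluent cells.

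miR-133a and miR-133b, which share a probe here, act on both proliferation and differentiation of myoblasts, and miR-133b is encoded beside miR-206. Their probe stood at 2.25, 2.67, 2.39 and 2.47 at day 1, against 0.47, 0.36, 0.64 and 0.41 in confluent cells. The groups did not overlap, and at the turning of the authors' table the confluent arrays were all above the pool. The difference was 1.97 (SE 0.23, limma adjusted p = 2.20e-06), or 3.93-fold, with a range of 1.97 to 2.91 over the turnings. Both probes passed in 19 of 19 other settings under every turning.

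miR-1, which shares its seed with miR-206 and is the most abundant miRNA of mature muscle, did not pass at day 1. Its values were -0.16, 0.57, 0.18 and 0.72 at day 1, against 0.14, 0.26, 0.19 and 0.40 in confluent cells. These groups overlapped fully. The difference of 0.08 had a 95% interval of -0.82 to 0.98 (limma adjusted p = 0.957). At the turning of the authors' table the probe was detected on 4 of 4 day 1 arrays and on 0 of 4 confluent arrays. In the pool channel it was detected on 2 of 8. Its confluent ratios thus compare signals near the limit of detection and give no bound. The arrays of the later stages gave miR-1 mean ratios to the same pool of 1.85 at day 2 and 2.07 at day 4.

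The other muscle-specific miRNAs tested were miR-486, abundant in mature muscle and red blood cells, and miR-499, which lies in an intron of the slow myosin gene Myh7b. miR-486 differed by 0.04 (95% interval -0.27 to 0.34) and miR-499 by -0.08 (-0.61 to 0.44). Neither passed, and both were at the edge of detection, with miR-499 detected on 0 of 4 day 1 arrays and 1 of 4 confluent arrays. Of the 5 muscle-specific probes tested, out of 6 on the array, 2 were thus higher under every turning and 0 were lower. Over all 187 probes the shares were 1.6% and 0%. The median difference of the 5 was 0.08, and 0.08 to 0.57 over the turnings, against 0.03 over all 187 probes. Without day 1 array 4 it was -0.05, and 2 of the 5 differences were then positive. With loess fitted within each print-tip block it was 0.31, with 5 of 5 positive. When probes had to be detected at day 1 or in confluent cells, 4 were tested, with a median of 1.03 and 4 of 4 positive. The median of this short list thus depended on the setting.

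**Figure D3:**
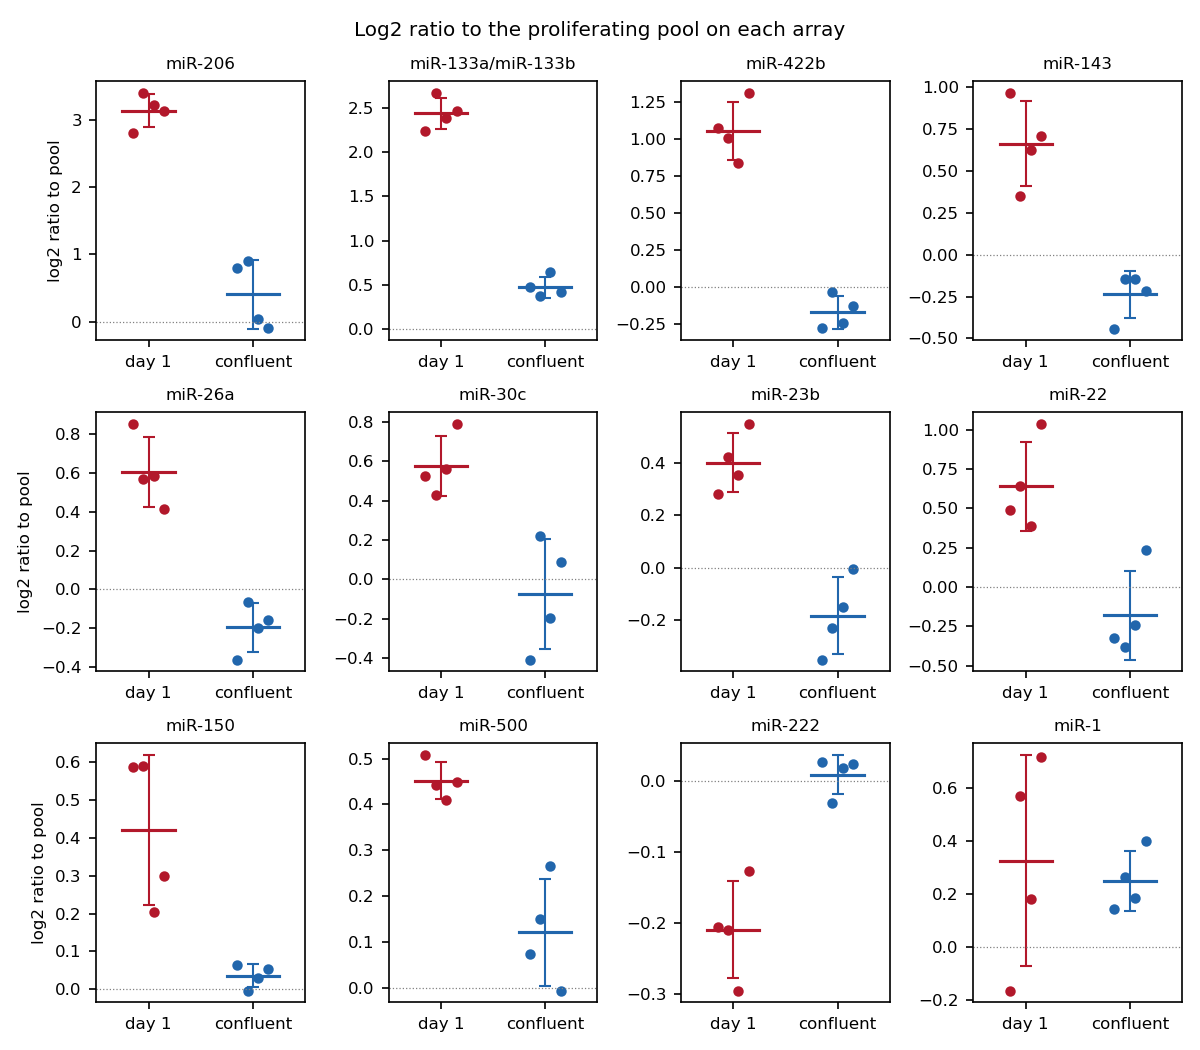
Log2 ratio to the proliferating pool on each array for 12 miRNAs, day 1 on the left (red) and confluent cells on the right (blue), at the turning of the authors' table; points are arrays, horizontal lines are means and bars are SDs (n = 4 each), and the vertical scale differs between panels. Day 1 and confluent arrays do not overlap in any panel except that of miR-1.

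On the list of other miRNAs with a described part in muscle differentiation, which leaves out the muscle-specific ones, only miR-422b was higher under every turning. It is the name then used for a product of the hairpin inside Ppargc1b, a gene of mitochondrial metabolism, and it is now called miR-378. The values were 1.07, 1.01, 0.83 and 1.31 at day 1, against -0.27, -0.03, -0.24 and -0.13 in confluent cells. All day 1 arrays were above the pool, and at the turning of the authors' table all confluent arrays were below it. The difference was 1.22 (SE 0.25, limma adjusted p = 0.00260) and was 0.89 at the turning nearest 0, with an adjusted p of 0.0406. That margin was narrow, since under every turning the call was kept in 7 of 19 other settings and lost when any 1 of the 8 arrays was left out (adjusted p up to 0.116). At the turning of the authors' table it was kept in 19 of 19. The probe for the other arm of this hairpin, named miR-378, differed by 0.22 and did not pass (limma adjusted p = 0.735), and was detected on 0 of 4 arrays of either stage.

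miR-143, a miRNA of smooth muscle and fibroblasts that is also found in myoblasts, had ratios of 0.96, 0.35, 0.63 and 0.71 at day 1, against -0.44, -0.15, -0.14 and -0.22 in confluent cells. At the turning of the authors' table the groups lay on either side of the pool. The difference was 0.90 (SE 0.17, limma adjusted p = 0.00186) at the turning of the authors' table and shrank to 0.43 (adjusted p = 0.126) at the turning nearest 0. miR-145, its neighbour on the same transcript, differed by 0.15 (95% interval -0.19 to 0.49), with 0.03 to 0.38 over the turnings, and did not pass.

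miR-26a, which targets the histone methyltransferase Ezh2 in differentiating myoblasts, was at 0.85, 0.57, 0.59 and 0.42 at day 1, against -0.36, -0.06, -0.20 and -0.16 in confluent cells. Even the lowest day 1 array exceeded the largest size seen on a confluent array, whichever its sign. The difference was 0.80 (SE 0.16, limma adjusted p = 0.00260), with 0.41 (adjusted p = 0.126) at the turning nearest 0. miR-26b, of the same seed, differed by 0.46 (SE 0.21, adjusted p = 0.321), did not pass, and ranged from -0.11 to 0.46 over the turnings.

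miR-22, a miRNA of heart and skeletal muscle, had values of 0.49, 0.64, 0.39 and 1.03 at day 1, against -0.33, -0.38, -0.24 and 0.24 in confluent cells. The groups were apart. Its difference of 0.82 had an SE of 0.32 and did not pass (limma adjusted p = 0.208), and it was 0.46 at the turning nearest 0. Of the 20 probes tested on the list of other muscle differentiation miRNAs, out of 22 on the array, 1 was higher under every turning, 3 at the turning of the authors' table and 0 were lower. Over all 187 probes these shares were 1.6% and 3.74%. Their median difference was 0.17 at that turning and lay between -0.08 and 0.17 over all 6, against -0.02 to 0.04 for all probes.

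**Figure D4:**
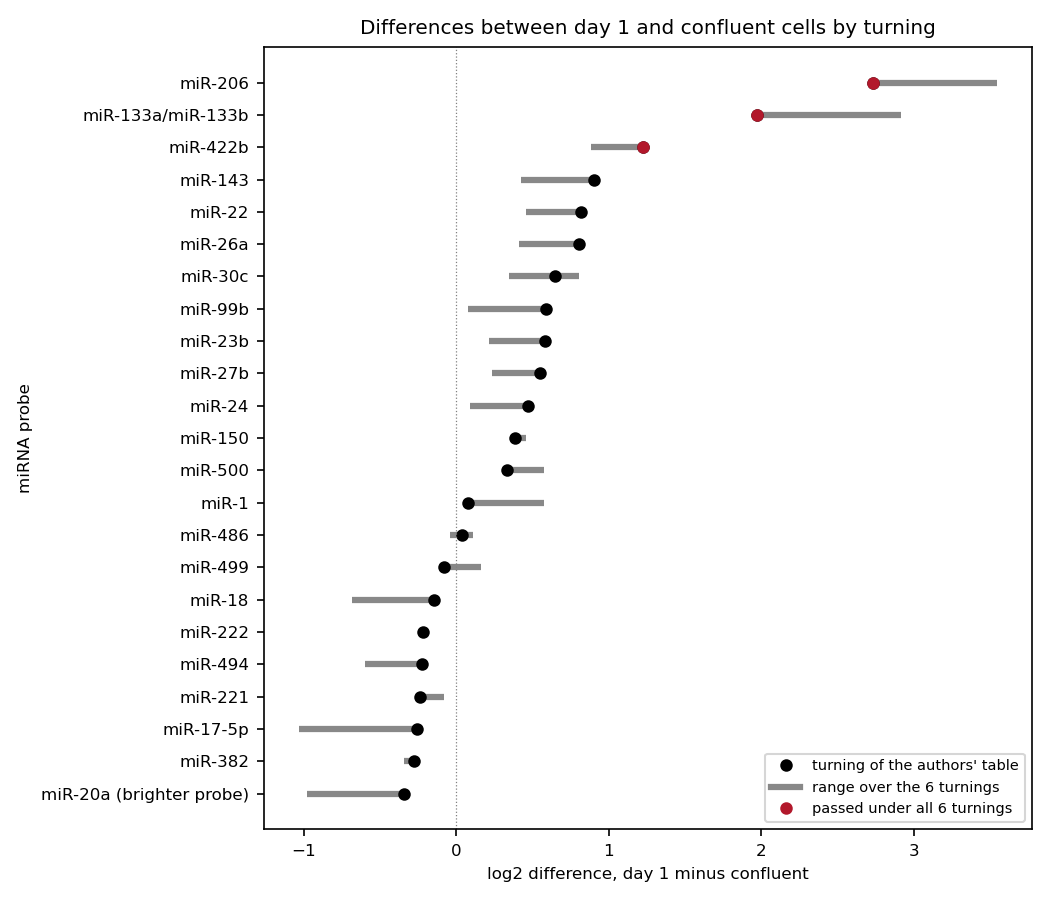
Difference in log2 ratio, day 1 minus confluent (horizontal axis), for 23 named miRNAs; dots are values at the turning of the authors' table, grey bars span the 6 turnings of the confluent arrays, and red dots passed limma's test under all 6. The 3 red dots stand at 2.73, 1.97 and 1.22, and the bars of miR-17-5p, miR-18 and the brighter miR-20a probe stay below 0.

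The groups were also read without any turning of the confluent arrays, by asking whether all 4 day 1 values lay beyond the size of every confluent value. At the turning of the authors' table the groups did not overlap for 18 probes higher at day 1 (9.63% of those tested) and 3 lower (1.6%). The reading without turning held for 8 probes above the pool (4.28% of those tested) and 1 below it (0.535%). Those above were miR-206, miR-133a/miR-133b, miR-422b, miR-22, miR-26a, miR-150, miR-30c and miR-500. miR-500 had closely spaced values of 0.51, 0.44, 0.41 and 0.45 at day 1, against 0.07, 0.15, 0.27 and -0.01 in confluent cells. Its difference of 0.33 (SE 0.13) did not pass at the turning of the authors' table (limma adjusted p = 0.208) but passed in 2 of the 6 turnings. miR-150, best known from lymphocytes, differed by 0.38 (SE 0.15, limma adjusted p = 0.208). At the turning of the authors' table it was detected on 3 of 4 day 1 arrays and 0 of 4 confluent arrays. In the pool channel it was detected on 2 of 8, so its confluent ratios too compare signals near the limit of detection.

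The probe below the pool was miR-222, which with miR-221 targets the cell cycle inhibitor p27 and is high in dividing myoblasts. miR-222 had ratios of -0.20, -0.21, -0.30 and -0.13 at day 1, against 0.03, -0.03, 0.02 and 0.02 in confluent cells. All day 1 arrays were lower than all confluent arrays. The difference of -0.22 (SE 0.20, 95% interval -0.64 to 0.20) did not pass (limma adjusted p = 0.710). Its SD was 0.07 at day 1 and 0.03 at confluence, while the SE rests on the spread of all 20 arrays. miR-221 differed by -0.24 (95% interval -0.62 to 0.15), with overlapping groups. Both members were negative under every turning, against 38 of all 187 probes. In 2 of the 19 other settings, median centring in place of loess among them, the sign of miR-221 was no longer the same in all 6. The later arrays gave miR-222 ratios to the pool of -0.91 at day 2 and -1.22 at day 4.

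Families of housekeeping and growth-linked miRNAs gave mostly small differences. The miR-30 family, which is broadly expressed, had 5 of 5 probes with a positive difference and a median of 0.40, where 81 of all 187 probes were negative. Over the turnings the median was 0.17 to 0.40, and 4 of 5 were positive under every turning, against 48 of all 187 probes. With median centring it was 0.19, with 5 of 5 positive. miR-30c was called at the turning of the authors' table (0.65, SE 0.17, limma adjusted p = 0.0288) and had 0.35 at the turning nearest 0 (adjusted p = 0.335), with values of 0.52, 0.43, 0.56 and 0.79 at day 1, against -0.41, 0.22, -0.19 and 0.09 in confluent cells. Its call was kept in 9 of 19 other settings, and it was lost without day 1 array 1, 3 or 4 or confluent array 1 or 3 (adjusted p up to 0.213). miR-30a-5p differed by 0.40 (0.09 to 0.40 over the turnings) and miR-30d by 0.15 (0.15 to 0.33), and neither passed.

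The 5 probes of miR-23, miR-24 and miR-27, which are transcribed together from a pair of paralogous clusters, had a median difference of 0.48 at the turning of the authors' table, where 4 of 5 were positive, and a median of 0.09 to 0.48 over all 6, with 3 of 5 positive under every turning. The value at the median, miR-23a, ranged from -0.29 to 0.48, and this miRNA was named after its value was seen. miR-23b passed at the turning of the authors' table, with 0.28, 0.42, 0.35 and 0.55 at day 1, against -0.35, -0.23, -0.15 and -0.00323 in confluent cells. All day 1 arrays were above all confluent arrays. The difference was 0.58 (SE 0.15, limma adjusted p = 0.0265), with 0.22 at the turning nearest 0, and the call was kept in 11 of 19 other settings. It was lost without day 1 array 2 or 4 or confluent array 1, 2 or 3 (adjusted p up to 0.147). miR-24 differed by 0.47 (0.09 to 0.47 over the turnings) and miR-27b, a repressor of the stem cell factor Pax3, by 0.55 (0.24 to 0.55). miR-27a differed by -0.03 (-0.37 to 0.04), and none of these passed.

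The miR-17 cluster and its paralogues had 8 of 14 probes tested. Of these, 6 were negative under every turning, against 38 of all 187 probes, and 0 passed under every turning. The median of the 8 was -0.12 at the turning of the authors' table and between -0.50 and -0.12 over all 6. At day 1 miR-17-5p was at -0.26, -0.85, -0.90 and -0.57, against -0.77, -0.27, -0.10 and -0.40 in confluent cells. Both stages were below the pool at that turning, and they overlapped. The difference was -0.26 (SE 0.18, limma adjusted p = 0.562). The brighter miR-20a probe differed by -0.34 and miR-18 by -0.14. miR-17-5p and this miR-20a probe passed in the 2 turnings with confluent arrays 2 and 4 or 3 and 4 in red, the second of these being the mirror of the authors' table. The size of any fall in this cluster between confluence and day 1 thus depends on how the confluent arrays are turned.

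**Figure D5:**
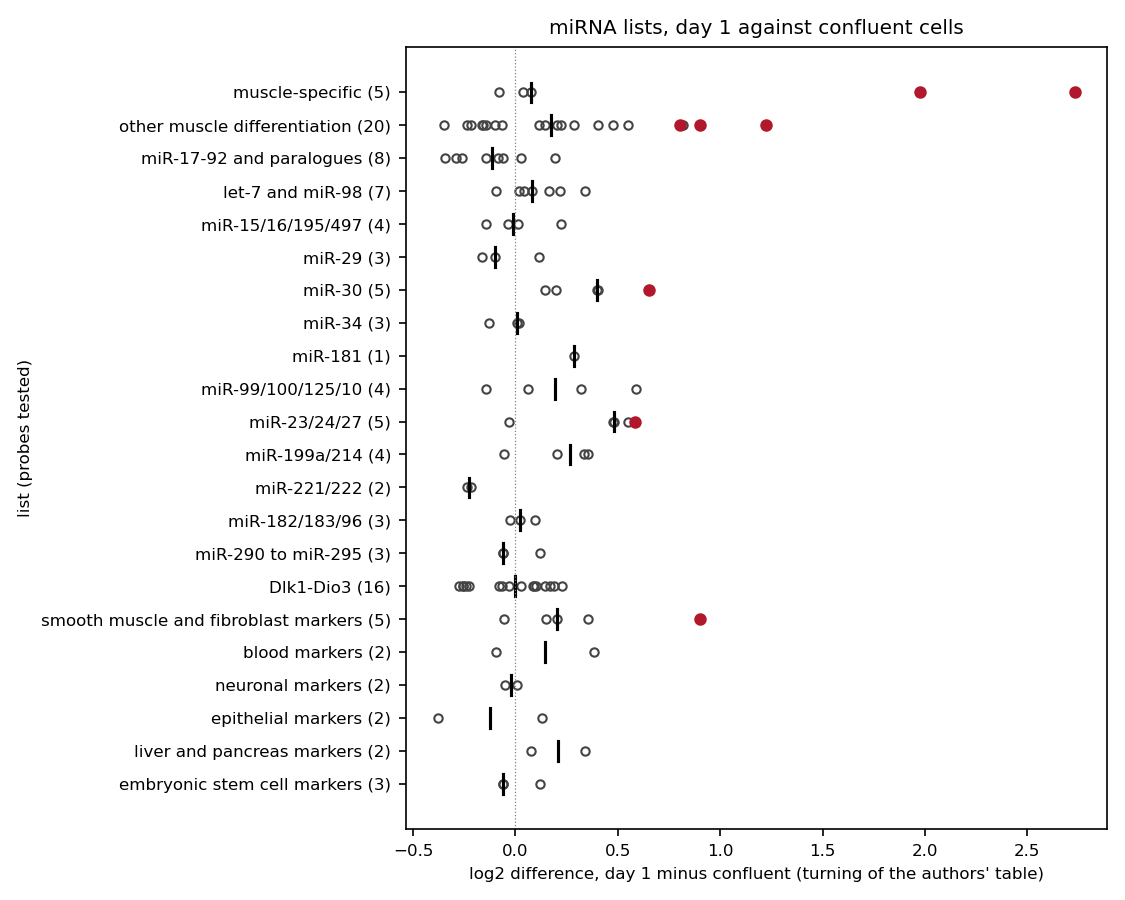
Difference in log2 ratio, day 1 minus confluent, at the turning of the authors' table (horizontal axis) for the tested probes of each miRNA list; circles are probes, filled red circles passed limma's test, and black bars are medians. The called probes lie among the lists of muscle, miR-30, miR-23 and smooth muscle, and the circles of miR-221 and miR-222 lie at -0.24 and -0.22.

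No probe was called in the other families, at either the turning of the authors' table or every turning. The let-7 and miR-98 family, broadly expressed in differentiated cells, had 7 of 8 probes tested, with a median of 0.08 at the turning of the authors' table and of -0.15 to 0.08 over all 6. For the family of miR-15 and miR-16, which targets cyclins, the median of 4 probes was -0.01 (-0.28 to -0.01 over the turnings), and for the miR-29 family, which targets collagens and Yy1, that of 3 was -0.10 (-0.36 to -0.10). It was 0.01 for 3 miR-34 probes (-0.32 to 0.01) and 0.19 for 4 probes of the miR-99, miR-100 and miR-125 families (0.13 to 0.26). The sign of the median depended on the turning for the 4 probes listed with miR-199a and miR-214, at 0.27 (-0.12 to 0.27). Of these, miR-199b was itself positive under every turning (0.28 to 0.52). The sign also depended on it for the 1 miR-181 probe, at 0.29 (-0.05 to 0.32). So did that of the median of 3 probes of the miR-182 cluster, at 0.02 (-0.17 to 0.02). Of the 42 probes of the imprinted Dlk1-Dio3 cluster 16 were tested, with a median of -0.00149 (-0.09 to 0.00817). Under median centring the medians of the miR-15, miR-34 and miR-182 groups were -0.12, -0.24 and -0.15, and that of all probes was -0.06. miR-99b came nearest to a call in these families, at 0.59 (SE 0.17, limma adjusted p = 0.0595), and its range over the turnings was 0.08 to 0.59.

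Markers of other cell types were mostly below the detection filter. None of the 2 endothelial probes was tested, and 2 of 6 blood, 2 of 8 neuronal, 2 of 7 epithelial and 2 of 4 liver and pancreas probes were. None of these passed, with differences between -0.38 for miR-200b and 0.38 for miR-150. All 5 smooth muscle and fibroblast probes were tested. Of these 1, miR-143, was called at the turning of the authors' table, against 3.74% of all 187 probes. The list had a median of 0.20 (-0.08 to 0.20 over the turnings). Of 9 embryonic stem cell probes of the miR-290 to miR-295 cluster 3 were tested and 0 passed at that turning.

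The U6 and small nucleolar RNA probes, which stand for loading, were not all near 0. Over 12 such probes the differences ran from -0.56 to 0.24 at the turning of the authors' table and from -1.19 to 0.35 over all turnings, and 4 of the 12 were detected on none of the 8 arrays. The U6 probes, detected on 8 of 8, had differences of -0.29 and -0.56 at the turning of the authors' table. Both were below 0 under every turning, with ranges of -0.65 to -0.29 and -0.96 to -0.56. SNORD2, SNORD3@ and SNORD13, also detected on 8 of 8, differed by -0.01, -0.03 and -0.30 and were below 0 under every turning too. Those above 0 at the turning of the authors' table, SNORD15A at 0.24 and SNORD118 at 0.00345, were detected on none of the arrays. The part of the U6 and small nucleolar RNA probes in the results above was not tested. Median intensities over arrays and channels were 127 to 322.5, and 107 to 196 of the 343 mouse-named probes were detected per channel on the 8 arrays. Differences among the 156 probes that were not tested lay between -0.62 and 0.65.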

How the data were processed

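Median foreground and morphological background intensities per spot and channel were used as deposited, with no normalisation by the authors per the file headers and values. The authors' deposited table holds 1 log2 value per probe and stage, and its scale was found by comparison with the arrays. Image software, scanner and slide are not given in the sources used here. Background was corrected with normexp (offset 50) in limma 3.58.1 under R 4.3.3, global loess (controls at weight 0) normalised the log2 ratios, and repeat spots were averaged. A probe was detected when 1 or more of its 2 spots exceeded percentile 95 of empty and negative-control spots, and tested when detected in the channel of the sample (in either channel for confluent and proliferating cells) on at least 3 of 4 arrays of a stage. The model held a dye term and 4 stage effects over 20 arrays (15 residual degrees of freedom, median prior 7.21), with lmFit, eBayes and two-sided tests adjusted over 187 probes. It was tested on simulated data in which confluent cells did not differ from the pool. Turning the confluent arrays changed only noise there, so the rule of every turning was not put to the test. The offset understates changes of dim probes. Array values are corrected for the fitted dye effect, SDs rest on 4 arrays per stage and SEs on the spread of all 20 arrays, and the number of arrays limits precision.

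The members and lists were chosen with earlier results of these data known. Named miRNAs were those called under every turning, up to 10 rises and falls with separate groups and a constant sign, the muscle-specific miRNAs tested, and from every other list no more than 4, ranked by their largest adjusted p over the turnings. miR-23a, miR-26b, miR-378, the U6 and small nucleolar RNA probes given singly and the counts at the turning of the authors' table were added after values were seen. Alternatives covered background, normalisation, filter, dye term, repeat spots, turning, leaving out arrays, and the authors' table. No per-sample column was left unused (0 columns).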

Additional observations from a re-analysis of the deposited data

Results flagged for a closer look

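In 5 of the 134 sets of 4 array values checked, 1 array stood far from the other three, and chance alone flags about 1 in 20 sets. miR-494 was at -0.798 on day 1 array 2, where the other day 1 arrays lay between -0.295 and -0.266. miR-292-5p was at 0.263 on day 1 array 4, with the others between 0.464 and 0.479. On confluent array 4 miR-16 was at 0.105, with the others between -0.454 and -0.362. On confluent array 2 miR-222 was at -0.0309, with the others between 0.0186 and 0.0267, and miR-144 was at 0.413, with the others between -0.0553 and 0.0191. None of these miRNAs was called under every turning.

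Among the 382 tested probes without a mouse name, which were outside the main measurement, 1 was higher at day 1 than in confluent cells under every turning and 0 were lower. It was the probe named for miR-133a of rhesus monkey and orangutan, with a difference of 2.16 (SE 0.27, limma adjusted p = 3.46e-05) and a range of 2.16 to 2.82 over the turnings.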

How the results depend on the processing

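The count of 3 probes higher under every turning was 2 to 4 in 19 other settings, and 2 without any 1 of the 8 arrays. The count lower under every turning was 0 throughout. Taken alone, the turnings with red confluent arrays 1 and 2, 1 and 3, 1 and 4, and 3 and 4 gave 7, 8, 6 and 12 higher. Red arrays 2 and 4 gave 2 lower and red arrays 3 and 4 gave 7 lower. At the turning of the authors' table, the count of 7 higher became 3 with median centring and 4 with no dye term, and it was 5 to 7 without any 1 array, with 0 lower in each case. The cause was not tested. miR-206 and miR-133a/miR-133b kept their calls in 19 of 19 settings, with differences of at least 2.55 and 1.88. At that turning miR-143 kept its call in 17 settings and miR-26a in 18, both losing it with median centring. Of the named results under other settings, 1691 stayed on their side of the threshold or, in the authors' deposited table, within the day 1 SD. Another 12 lost the call, all of miR-422b, 22 gained it, and 13 moved by more than that SD in the authors' deposited table. The settings here include each of the 6 turnings alone, set against the call under every turning. A pass at a single turning thus counts as a gain. Signs were less stable: at the turning of the authors' table, 27 of 67 named miRNAs had the other sign in 1 or more settings, none of them called and none with a difference above 0.290 in size. Of 39 with 1 sign over all turnings, 14 lost this in some setting, miR-221 and miR-30a-5p among them, and 0 took the opposite sign throughout. No paired analysis was possible because the array columns carry no replicate numbers. The signal of dim probes limits the rest.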
